A study of Mus musculus with 3 samples.

Results

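Genes that write, erase or change histone and DNA marks were followed in RNA held on the chromatin of mouse macrophages. They were taken by gene symbol, as every gene whose name starts with Kdm1 to Kdm8, Kmt2, Kmt5, Hdac or Setd and a digit, Sirt1 to Sirt7, Kat2 to Kat8, Ezh1, Ezh2, Ehmt1, Ehmt2, Nsd1 to Nsd3, Tet1 to Tet3, Dnmt1 or Dnmt3 and that has at least 1 protein-coding isoform, other than a Y-linked Kdm5 gene. This gave 73 genes of 21901 genes with a protein-coding isoform, and none was left out for a low value. The label of the set names demethylases, methyltransferases, deacetylases and sirtuins, whereas the symbols also take in 7 lysine acetyltransferases and 8 genes that act on DNA, namely 5 DNA methyltransferases and 3 TET dioxygenases. A further 9 genes matched by symbol but have no protein-coding isoform, and were left out. The cells were bone marrow-derived macrophages of strain C57BL/6J, grown from marrow progenitors and exposed for 12 h to 100 ng/ml of Lipid A, the lipid anchor of bacterial endotoxin and a ligand of Toll-like receptor 4. A washout of 12 h followed, and a second exposure at 100 ng/ml lasted 120 min before chromatin was isolated. All 3 libraries were biological replicates of this 1 condition, made from ribosomal RNA-depleted total RNA, so the values describe levels after the second exposure, and no untreated cells were analysed here. Labels give the 3 samples the same donor identifier and do not say that they came from separate animals, so the SD may reflect technical spread between samples alone.

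Histones carry methyl and acetyl groups on lysines of their tails. Acetyl groups, placed by acetyltransferases and removed by zinc-dependent deacetylases and NAD-dependent sirtuins, accompany active genes. Methyl groups mark active or silent chromatin depending on the lysine, such as H3K4 and H3K36 at active genes and H3K9 and H3K27 at silent ones, and in DNA the methylation set by DNMT enzymes is oxidised by TET enzymes. In macrophages these enzymes are studied for how the memory of an earlier stimulus is kept, and the H3K27 demethylase gene Kdm6b is known as a gene induced by lipopolysaccharide.

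Replicates 1, 2 and 3 had totals of 10293545, 17820066 and 17548564 expected counts, and the 73 genes held 1.06% ± 0.0435 (SD, n = 3) of them. Levels are given as TPM, a measure of transcripts scaled to the same total in each library and corrected for length, so that genes can be compared. Of 8 macrophage markers all 8 reached a TPM of 1 or more throughout, with a summed TPM of 1194, 1259 and 832 in replicates 1, 2 and 3. None of 7 neutrophil, 5 B cell, 5 T cell, 5 erythroid or 5 fibroblast markers did, and the summed TPM of each of these lists was at most 1.42, with the 5 erythroid genes at 0. In RNA from a whole culture, fewer cells of a type and less RNA per cell cannot be told apart. The median over protein-coding genes of replicate 1 minus the mean of the others was -0.34 (log2) on the TPM scale, against -0.03 on the scale of CPM, counts scaled to library size, with TMM normalisation.

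Most of the 73 genes were transcribed in these cells. Of 73 genes 65 were expressed, which here means a TPM of 1 or more in each of the 3 libraries, against 42.2% of all genes with a protein-coding isoform. In every library 40 of 73 exceeded the median of expressed protein-coding genes, whose TPM was 9.99, 14.0 and 12.1 in replicates 1, 2 and 3, against 18.6% of all genes. By mean TPM, 19 genes stood at 50 or more, 26 between 10 and 50, 22 between 1 and 10, and 6 under 1. The median of the 73 genes on the log2(TPM + 0.1) scale was 4.17 ± 0.25 (SD, n = 3), and that of the 65 expressed ones 4.73 ± 0.12, beside 3.58 ± 0.24 over all expressed protein-coding genes. The 5 highest by mean TPM were Tet2, Ehmt2, Setd5, Kmt2a and Dnmt3a. By expected counts, which also rise with transcript length, the order was led by Kmt2a, Kmt2d, Tet2, Tet3 and Setd5, which together held 43.1% of the counts of the 73 genes.

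**Figure D1:**
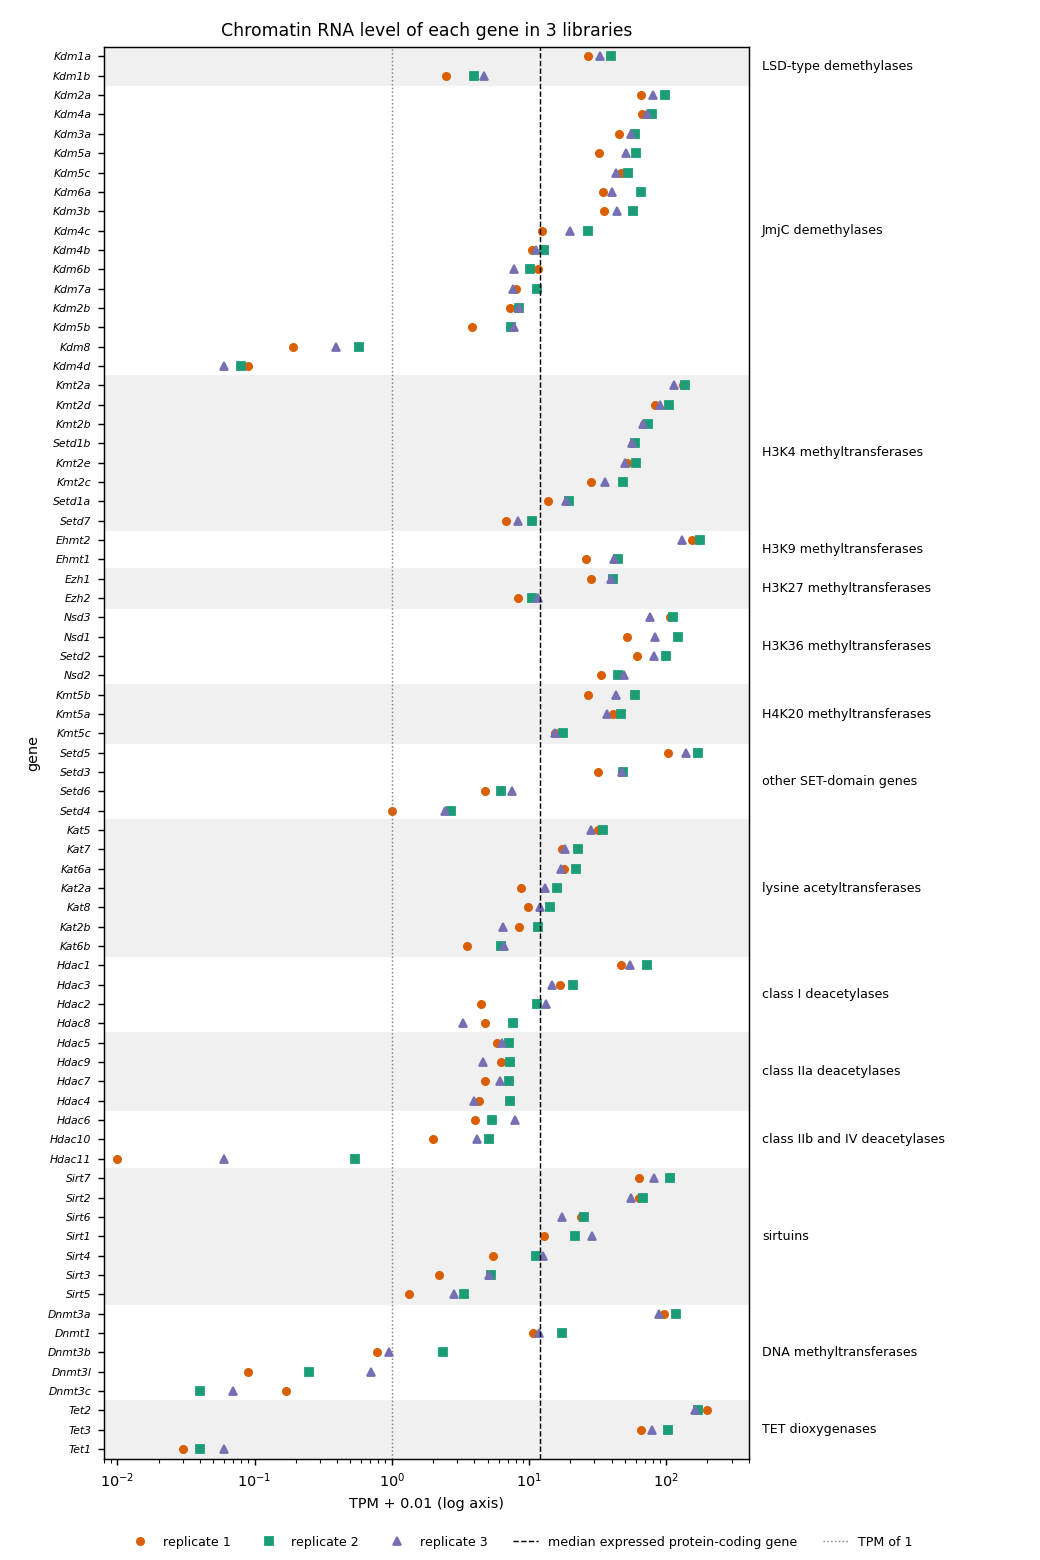
Level of each of the 73 genes, by role, as TPM + 0.01 on a log axis, with 1 point per library and lines at a TPM of 1 and at the median expressed protein-coding gene. The class IIa deacetylases lie left of that median, while the H3K36 and H4K20 methyltransferases lie right of it.

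The H3K4 demethylases of the LSD type, which use a flavin cofactor, were both expressed. Kdm1a, the catalytic subunit of CoREST complexes (ENSMUSG00000036940.15, chr4:136550540-136602723), had a TPM of 26.8, 39.8 and 33.1 in replicates 1, 2 and 3. Kdm1b, which acts in gene bodies and in the oocyte, had 2.47, 3.96 and 4.69. Kdm1a was 8.93-fold higher on the log2(TPM + 0.1) scale, was higher in 3 of 3 libraries and made up 90.03% ± 2.14 (SD, n = 3) of the TPM of the pair. Part of the Kdm1b exons, 9.19% of their bases, overlaps Dek on the opposite strand, and whether counting used strand is not given in the sources used here.

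Of 15 genes grouped here by name as demethylases with a JmjC domain, the fold of iron-dependent dioxygenases, 13 were expressed, and 8 exceeded the median gene throughout. Kdm2a, which removes methyl groups from H3K36 and binds unmethylated CpG DNA (ENSMUSG00000054611.17, chr19:4314419-4398285), led with a TPM of 65.3, 98.5 and 80.7 in replicates 1, 2 and 3. Kdm4a, which acts on H3K9 and H3K36, followed with 66.3, 78.5 and 72.7. In both genes replicate 2 was highest and replicate 1 lowest. The H3K9 demethylase Kdm3a stood at 53.1 ± 7.09 (mean ± SD, n = 3) and its relative Kdm3b at 45.5 ± 11.3. Among H3K4 demethylases, Kdm5a stood at 48.0 ± 14.5, the X-linked Kdm5c at 47.4 ± 5.21 and Kdm5b at 6.31 ± 2.15. The Kdm4a relatives Kdm4c and Kdm4b were lower, at 19.8 ± 7.32 and 11.6 ± 1.18, as were Kdm7a at 9.02 ± 2.04 and Kdm2b, a partner of variant Polycomb complexes, at 8.05 ± 0.713. Kdm8 and Kdm4d were not expressed. Kdm8 had a TPM of 0.18, 0.57 and 0.38 from 5, 19 and 14 counts, and Kdm4d, the lowest of the group, had 0.08, 0.07 and 0.05 from 2, 2 and 2 counts.

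The H3K27 demethylases differed in level. Kdm6a, the X-linked enzyme also called UTX, had a TPM of 34.5, 65.7 and 40.1 in replicates 1, 2 and 3, and Kdm6b, also called JMJD3, had 11.7, 10.1 and 7.71. Kdm6a was 4.61-fold higher than Kdm6b on the log2(TPM + 0.1) scale, and higher in 3 of 3 libraries. Kdm6b (ENSMUSG00000018476.7, chr11:69398508-69413675) lay under the median expressed gene in replicates 2 and 3 and above it in replicate 1. Its antisense partner Kdm6bos, which overlaps 4.11% of its exon bases, had 24.9, 8 and 6 counts, beside 653, 735 and 674 for Kdm6b itself.

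Genes grouped here by name as H3K4 methyltransferases were among the more abundant ones, with all 8 expressed and 7 of 8 above the median gene throughout. Their group median was 5.80 ± 0.09 (log2(TPM + 0.1), SD, n = 3). Kmt2a, the MLL1 enzyme that keeps Hox genes active (ENSMUSG00000002028.13, chr9:44803355-44881296), had a TPM of 133, 138 and 114 in replicates 1, 2 and 3, higher on average than 95.7% of expressed protein-coding genes. Kmt2d, an enzyme that marks enhancers, had 83.3, 105 and 90.1. Kmt2b, a Kmt2a relative, had 68.9, 74.0 and 67.6. Replicate 2 was the highest library for each of these, and replicate 3 was lowest for Kmt2a and Kmt2b. Setd1b, of the broad H3K4 trimethylating complex, stood at 57.7 ± 1.62, Kmt2e at 54.0 ± 5.60, Kmt2c at 37.4 ± 9.98 and Setd1a at 17.4 ± 3.14. Exons of Setd1a share 51.8% of their bases with Gm49388 on the same strand, to which 3.01, 0 and 0 TPM were assigned, so its level is uncertain. Setd7, an enzyme that adds 1 methyl group and also has substrates other than histones, was lowest with 6.77, 10.4 and 8.25.

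The H3K9 methyltransferases Ehmt2 and Ehmt1, partners in the G9a and GLP heterodimer that silences euchromatic genes, were both above the median gene in every library. Ehmt2 (ENSMUSG00000013787.15, chr17:34898469-34914052) had a TPM of 154, 176 and 129.8 in replicates 1, 2 and 3, and Ehmt1 had 26.0, 44.4 and 41.4. Although the proteins pair, Ehmt2 RNA was 4.18-fold higher and made up 80.4% ± 4.90 of their summed TPM.

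Of the H3K27 methyltransferases, the alternative catalytic subunits of Polycomb repressive complex 2, Ezh1 was the higher. Ezh1, known from non-dividing cells (ENSMUSG00000006920.14, chr11:101191115-101226463), had a TPM of 28.3, 41.1 and 39.9 in replicates 1, 2 and 3, and Ezh2, known from dividing cells, had 8.34, 10.6 and 11.7. The difference Ezh2 minus Ezh1 was -1.75, -1.95 and -1.76 (log2) in the 3 libraries, with an SD of 0.11 (log2), so Ezh1 was 3.53-fold higher. All 9 genes listed as PRC2 partners were expressed, from Aebp2, an accessory subunit, at 96.3, 110.0 and 133 to Phf19, another, at 1.03, 1.84 and 1.1.

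All 4 H3K36 methyltransferase genes exceeded the median gene in each library, with a group median of 6.28 ± 0.45 (log2(TPM + 0.1)). Nsd3 (ENSMUSG00000054823.16, chr8:25601601-25719667), which like Nsd1 and Nsd2 adds up to the dimethyl state, had a TPM of 107, 112 and 75.9 in replicates 1, 2 and 3. Nsd1 had 52.2, 121 and 83. The 2 changed places: Nsd3 was higher in replicate 1 and Nsd1 in replicates 2 and 3. Setd2, the enzyme of the trimethyl state that travels with RNA polymerase II, had 61.3, 99.1 and 81.1, and Nsd2 was lowest with 33.4, 44.6 and 49.0. Setd2 kept nearly the same share of counts in each library, with a log2 CPM of 8.58, 8.56 and 8.57, whereas its TPM was lowest in replicate 1.

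The H4K20 methyltransferases were all expressed above the median gene. Kmt5b, an enzyme of the di- and trimethyl states (ENSMUSG00000045098.19, chr19:3767421-3818303), had a TPM of 26.9, 59.0 and 43.0 in replicates 1, 2 and 3. Kmt5a, the enzyme of the monomethyl state that is tied to the cell cycle, had 40.8, 47.0 and 37.3. Kmt5c, the second trimethylating enzyme, was lowest with 15.3, 17.8 and 15.6. Replicates differed little for Kmt5c, while for Kmt5b replicate 1 was lower than the other libraries.

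Of 4 other SET-domain genes 3 were expressed, and they spanned a wide range. Setd5, a chromatin protein whose own methyltransferase activity is debated (ENSMUSG00000034269.12, chr6:113077365-113153435), had a TPM of 102, 171 and 140.3 in replicates 1, 2 and 3 and held 73.0% ± 1.94 of the group's TPM. Setd3, which methylates a histidine of actin, had 31.8, 48.8 and 47.6. Setd6, which methylates the NF-kB subunit RelA, had 4.74, 6.24 and 7.53. Setd4 had 0.99, 2.68 and 2.44 and missed the TPM of 1 in replicate 1, where it rested on 9 counts.

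Lysine acetyltransferases were expressed in 7 of 7 cases, 3 of them above the median gene throughout. Kat5, the catalytic subunit of the TIP60 complex (ENSMUSG00000024926.10, chr19:5603014-5610237), led with a TPM of 31.9, 34.7 and 28.4 in replicates 1, 2 and 3. Kat7, the HBO1 enzyme, had 17.3, 22.8 and 18.2. Kat2b, also called PCAF, had 8.5, 11.6 and 6.5 and Kat6b was lowest with 3.51, 6.23 and 6.57. Kat6a stood at 19.1 ± 2.54 (mean ± SD, n = 3), Kat2a, the GCN5 enzyme of the SAGA complex, at 12.5 ± 3.60 and Kat8, the H4K16 acetyltransferase MOF, at 12.0 ± 2.22. This order depends on the measure. In the read-based values described further on, Kat7 led with a mean of 35.3 against 28.5 for Kat5, and Kat2a was lowest at 10.9. Kat5 was there above Kat7 in replicate 1 only. By expected counts Kat6a led, with a mean of 2527 against 433 for Kat5. Exons of Kat5 overlap Rnaseh2c on the opposite strand over 12.1% of their bases. Acetyltransferases and bromodomain readers outside the symbol list, 10 genes, were all expressed, from Brd2, a reader of acetylated histones, at 300.03, 295 and 276 to Kat14 at 8.77, 13.4 and 12.3.

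Among the 11 zinc-dependent deacetylases, Hdac1 stood apart. Hdac1, a catalytic subunit of the NuRD, Sin3 and CoREST complexes (ENSMUSG00000028800.15, chr4:129516104-129542713), had a TPM of 46.7, 72.3 and 54.2 in replicates 1, 2 and 3 and made up 46.6% ± 0.914 (SD, n = 3) of the TPM of the family. By expected counts Hdac1 was less far ahead, with a mean of 760 against 432 for Hdac3. Its only coding isoform, Hdac1-201, had a TPM of 10.05, 17.4 and 14.0, and retained-intron isoforms held the rest. Hdac3, the deacetylase of the NCoR and SMRT corepressors (ENSMUSG00000024454.16), had 17.0, 21.1 and 14.7. Hdac2, which can replace Hdac1 in its complexes, had 4.45, 11.5 and 13.3, and the X-linked Hdac8 was lowest of class I with 4.8, 7.63 and 3.31. Hdac1 was 6.39-fold higher than Hdac2, with library differences of 3.36, 2.65 and 2.02 (log2) of which that in replicate 1, where Hdac2 was lowest, was the widest. Of 17 corepressor partners 16 were expressed, from the NuRD remodeller Chd4 at 225, 177 and 169 to Rcor2, which stayed under a TPM of 1 at 0.7, 0.62 and 0.63.

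Class IIa deacetylases, which shuttle between cytoplasm and nucleus and bind MEF2 factors, lay close together and low. None of the 4 exceeded the median gene throughout, and the group median was 2.58 ± 0.25 (log2(TPM + 0.1)). Hdac5 had a TPM of 5.8, 7.14 and 6.3 in replicates 1, 2 and 3, and Hdac9 had 6.24, 7.25 and 4.63. Hdac7 had 4.76, 7.11 and 6.17 and Hdac4 was lowest with 4.34, 7.32 and 3.98. The ranges of all 4 overlap, and neither Hdac7 and Hdac9 nor Hdac5 and Hdac4 kept the same order in every library. Exons of Hdac4 overlap the noncoding Gm26720 on the opposite strand over 22.4% of their bases.

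In classes IIb and IV, Hdac6, a mainly cytoplasmic tubulin deacetylase on the X chromosome, had a TPM of 4.04, 5.35 and 7.94 in replicates 1, 2 and 3. Hdac10, a polyamine deacetylase, had 1.99, 5.14 and 4.16. Both were expressed under the median gene. Hdac11, the single class IV enzyme, had 0, 5 and 2 counts and a TPM of 0, 0.53 and 0.05. Its 0 counts in replicate 1 allow a share of up to 2.91e-05% of counts, taking 3 counts as the limit and covering counting error only.

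The 7 sirtuins were all expressed, 4 of them above the median gene throughout. Sirt7, a nucleolar sirtuin that removes acetyl groups from H3K18 (ENSMUSG00000025138.14, chr11:120618372-120625240), led with a TPM of 63.6, 106 and 81.6 in replicates 1, 2 and 3. Sirt2, which is mainly cytoplasmic and deacetylates tubulin and H4K16, had 63.4, 67.4 and 55.9. Together they made up most of the family's TPM, with 40.3% ± 3.70 for Sirt7 and 30.7% ± 5.18 for Sirt2 (SD, n = 3). In the read-based values described further on, Sirt2 was above Sirt7 in each library, at 90.1, 81.9 and 70.3 against 66.1, 79.0 and 66.1. Exons of Sirt7 also share 2.41% of their bases with Mafg on the same strand. Sirt6, which acts on H3K9 acetylation, had 24.1, 25.01 and 17.4. Sirt1, a deacetylase of RelA and p53, had 12.9, 21.6 and 28.9 and was highest in replicate 3. By mean TPM the mitochondrial sirtuins were the lowest of the family, though in the read-based values described further on Sirt5 was above Sirt6. Sirt4 had 5.42, 11.3 and 12.7, Sirt3 had 2.21, 5.32 and 5.09 and Sirt5, a desuccinylase, had 1.33, 3.36 and 2.84. For each of the mitochondrial genes replicate 1 was lowest.

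DNA methyltransferases were divided between 1 high gene and 4 lower ones. Dnmt3a, the de novo methyltransferase (ENSMUSG00000020661.15, chr12:3806007-3914443), had a TPM of 96.4, 119 and 88.8 in replicates 1, 2 and 3 and held 87.2% ± 1.76 of the group's TPM. Dnmt1, which maintains methylation after replication, had 10.8, 17.3 and 11.9, 7.66-fold under Dnmt3a. Dnmt3b, the other de novo enzyme of somatic cells, had 0.77, 2.34 and 0.95 and was not counted as expressed. The germline genes were near 0: Dnmt3l, a cofactor with no activity of its own, had 1, 4 and 2 counts, and Dnmt3c, a rodent enzyme of male germ cells, had 4, 1 and 2 and a TPM of 0.16, 0.03 and 0.06. The processed pseudogene Dnmt3l-ps1 held 200, 143 and 171 counts, more than Dnmt3l in each library, so reads shared between these copies may be split wrongly. All 7 DNA methylation partners were expressed, from Uhrf2 at 39.4, 57.7 and 57 to Uhrf1, the partner of Dnmt1 at replication forks, at 3.91, 2.43 and 1.62.

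Of the TET dioxygenases, which oxidise methylated cytosine, Tet2 and Tet3 were expressed and Tet1 was not. Tet2, often mutated in clonal blood cell expansions (ENSMUSG00000040943.12, chr3:133463679-133545139), had a TPM of 198, 171 and 163 in replicates 1, 2 and 3, the highest mean of the 73 genes and higher than 97.4% of expressed protein-coding genes. Tet3 had 65.2, 104 and 78.6. Tet1, known from embryonic stem cells, had 0.02, 0.03 and 0.05 from 4, 7 and 6 counts. Tet2 was highest in replicate 1, against the general drop of TPM there, and made up 68.3% ± 6.52 of the family's TPM.

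Enzymes outside the symbol list were measured beside these. Of 11 partners of the H3K4 methyltransferases all were expressed, from Psip1, which tethers Kmt2a to chromatin, at 35.3, 62.8 and 68.6 to Dpy30 at 1.12, 5.17 and 3.32. Of 10 further methyltransferases 9 were expressed, led by Ash1l, an H3K36 enzyme, at 37.0, 64.8 and 53.8, with Setmar lowest at 0.67, 0.09 and 0.47. Of 8 further JmjC genes 6 were expressed, from Jmjd1c at 107, 188 and 144 to Hr at 0.03, 0.02 and 0.

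Related genes were compared within each library for 22 pairs. Of them 18 kept 1 direction in all 3 libraries, and 14 of these differed by at least 1 log2 unit on average. An exact two-sided sign-flip test over the 3 libraries gave p = 0.25 for each of the 18 pairs, which is the smallest p that 3 libraries allow, and an adjusted p of 0.306 (Benjamini-Hochberg over 22 pairs), so no pair could pass a threshold of 0.05. The widest gaps were Kdm2a over Kdm2b, 9.89-fold with library differences of 3.16, 3.52 and 3.24 (log2), and Kdm1a over Kdm1b, with 3.39, 3.30 and 2.79. Kdm4a was 6.24-fold over Kdm4b, with the smallest spread of the 22 pairs, an SD of the log2 difference of 0.0338. Lower folds separated Sirt7 from Sirt6, 3.73, Kat6a from Kat6b, 3.57, Setd1b from Setd1a, 3.35, Kmt2d from Kmt2c, 2.53, and Kmt5b from Kmt5c, 2.51. Tet2 was 2.18-fold over Tet3, Nsd1 1.93-fold over Nsd2 and Kmt2a 1.82-fold over Kmt2b. No stable order was found for Kdm5a and Kdm5c, Nsd1 and Nsd3, Hdac5 and Hdac4, or Hdac7 and Hdac9. The direction of Kdm3a over Kdm3b turned in CPM and in the read-based values, and that of Kat2a over Kat2b in the read-based values. In 6 pairs the direction held but the read-based gap was smaller by over 1.5-fold. The log2 difference of Kdm4a minus Kdm4b was 1.52 read-based against 2.64, that of Kdm1a minus Kdm1b 2.47 against 3.16, and that of Kat6a minus Kat6b 0.87 against 1.84. Setd1a minus Setd1b was -0.55 against -1.74, Ehmt1 minus Ehmt2 -1.42 against -2.06, and Dnmt1 minus Dnmt3a -2.29 against -2.94. In CPM, which is not corrected for length, the gap was also moved by over 1.5-fold with its direction kept for Kdm1a and Kdm1b, Hdac1 and Hdac2, Kdm6a and Kdm6b, Ezh1 and Ezh2, Kat6a and Kat6b, Kmt2a and Kmt2b, Kmt2c and Kmt2d, Kmt5b and Kmt5c, and Sirt6 and Sirt7.

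**Figure D2:**
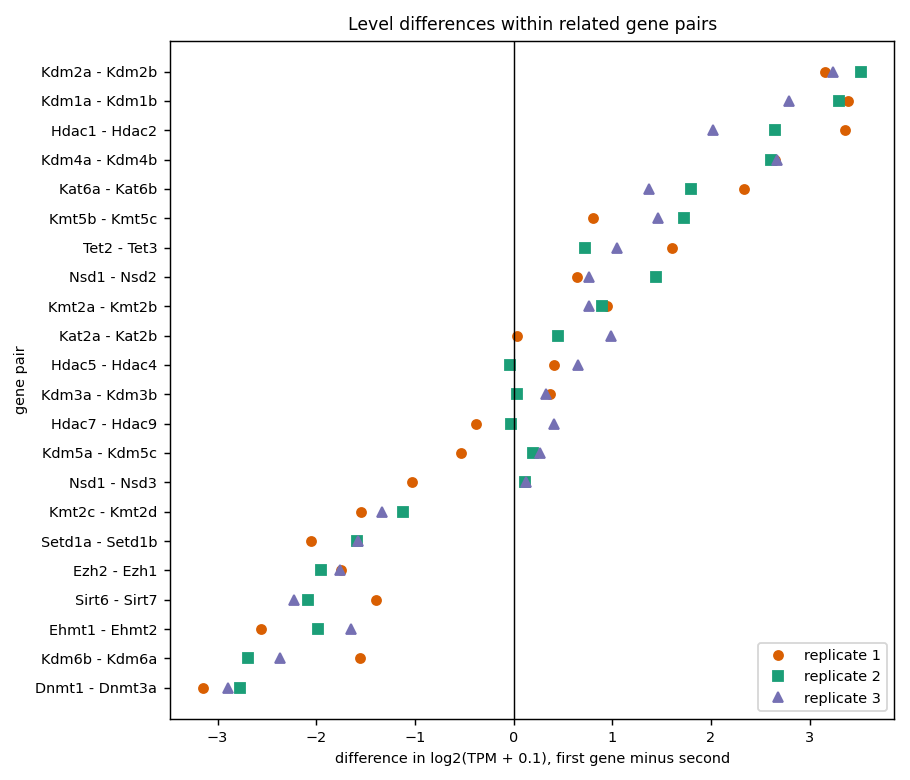
Difference in log2(TPM + 0.1) between the genes of 22 related pairs, first minus second, with 1 point per library and a line at 0. In 18 pairs all 3 points lie on 1 side of 0, and the 4 others straddle it.

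Promoter windows of the RefSeq genes on GRCm38.p6, 250 bases before to 50 after a start site, were matched by symbol for 57 of 73 genes. Of these windows 48 lay within 1000 bases of the start of the gene's most abundant protein-coding isoform, and were read for the motif CG, which reads the same on both strands. The motif was present in 100% of these 48 windows and in 96.7% of 14431 windows of all genes, with a median of 23.5 and 16 copies. By the usual criteria of a CpG island, an observed over expected ratio of at least 0.6 and a GC content of at least 50%, 41 of 48 windows (85.4%) were island-like, against 74.7% of 6879 windows of expressed genes and 51.2% of all 14431. Of 5 windows of unexpressed members 4 were island-like. The windows of Tet2, the highest of the 73 genes, of Kdm7a, with the most CG copies among them, and of Dnmt3l, which was not expressed, are printed to show this range, with each CG in capitals and each read 5′ to 3′ on the gene's strand. They lie at chr3:133544341-133544640 (minus strand, 57 copies), chr6:39206724-39207023 (minus strand, 65 copies) and chr10:78055085-78055384 (plus strand, 3 copies). The Dnmt3l window lies 13388 bases inside the annotated gene and is 1 of 3 windows of that gene, of which the richest has 6 copies. It was not island-like, unlike the 4 other windows of unexpressed members, so it does not stand for them.
Tet2: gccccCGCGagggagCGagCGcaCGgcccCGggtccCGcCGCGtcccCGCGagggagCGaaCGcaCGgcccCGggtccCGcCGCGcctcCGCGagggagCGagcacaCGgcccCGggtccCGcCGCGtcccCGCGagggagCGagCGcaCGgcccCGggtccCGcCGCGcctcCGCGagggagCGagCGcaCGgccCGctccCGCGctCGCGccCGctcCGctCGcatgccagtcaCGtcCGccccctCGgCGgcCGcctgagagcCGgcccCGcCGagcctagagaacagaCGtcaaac
Kdm7a: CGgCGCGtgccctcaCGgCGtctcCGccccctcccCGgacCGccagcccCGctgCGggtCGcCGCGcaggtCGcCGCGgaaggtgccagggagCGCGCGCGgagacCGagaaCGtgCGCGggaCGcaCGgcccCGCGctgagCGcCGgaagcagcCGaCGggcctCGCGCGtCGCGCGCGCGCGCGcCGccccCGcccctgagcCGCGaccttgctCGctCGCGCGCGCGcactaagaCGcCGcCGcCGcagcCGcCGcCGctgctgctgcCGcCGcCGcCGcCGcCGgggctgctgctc
Dnmt3l: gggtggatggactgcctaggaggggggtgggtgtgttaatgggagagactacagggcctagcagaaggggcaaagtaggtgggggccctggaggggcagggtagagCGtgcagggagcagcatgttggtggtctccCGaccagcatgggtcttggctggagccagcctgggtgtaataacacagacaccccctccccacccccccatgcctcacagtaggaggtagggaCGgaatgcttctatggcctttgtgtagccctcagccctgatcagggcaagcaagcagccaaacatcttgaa

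Windows of expressed genes had more copies, with a median of 22 over all expressed genes and 7 over unexpressed ones. Among the 48 windows the median was 26 for 43 expressed members and 17 for 5 unexpressed ones. In single genes, many copies did not always go with a high level. Kdm7a, with 65 copies, stood at a TPM of 9.02 ± 2.04 (SD, n = 3), under Kdm4a with 13 copies at 72.5 ± 6.12. The lowest count among the 48 was 1, in the window of Setd5, the third highest gene. That window lies 27570 bases inside the annotated gene, near the start of the isoform Setd5-202, and 9 of the 48 windows lie more than 1000 bases from the outer start of their gene. Windows of Dnmt3c, Hdac1, Hdac3, Hdac10, Kat6a, Kdm2a, Kdm3b, Kdm4b, Kdm5a, Kdm6b, Kmt2b, Kmt2e, Nsd1, Nsd2, Nsd3 and Setd1b were not used here.

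Isoforms annotated with a retained intron took a large share of these genes' TPM. Of 65 expressed genes 53 have such an isoform. In 15 of 53 it held over 50% of the gene's TPM in all 3 libraries, beside 33.3% of the 5969 expressed protein-coding genes with such an isoform, so the share of genes was near that background. By expected counts it was 8 of 53, with no share over all genes taken. The median share was 43.1% ± 1.33 (SD, n = 3) over the 53 genes and 47.0% ± 1.49 over all. By expected counts, which give more weight to long isoforms, the medians were 25.8% and 31.0%. A stable retained intron and RNA not yet spliced cannot be told apart in these values.

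The highest shares of TPM were found in deacetylase, sirtuin and H4K20 methyltransferase genes. Hdac7 held 86.3%, 86.6% and 92.6% of its TPM on retained-intron isoforms in replicates 1, 2 and 3. Sirt4 held 100%, 78.6% and 84.8%, with 35 counts for the whole gene in replicate 1. Sirt7 held 85.7%, 77.5% and 79.7%, and replicate 1 was highest in both sirtuins. Kmt5c held 83.7%, 67.8% and 78.4% and Hdac1 held 78.5%, 76.0% and 74.1%. By expected counts the mean shares were 82.7% for Hdac7, 80.1% for Sirt4, 86.1% for Sirt7, 44.1% for Kmt5c and 50.55% for Hdac1. Sirt3, at 77.9%, and Kat8, at 64.3%, were among the genes above Kmt5c and Hdac1 on that scale. These 5 genes were picked by their mean share of TPM in these libraries, so their place above the median gene follows from the choice. Their lowest single share of TPM was 67.8%. At the other end, Hdac9 held 8.33%, 8.41% and 11.2% and Kdm3b 7.12%, 8.83% and 13.0%. Some shares rested on little: Kat2b held 33.4%, 0% and 0% and Hdac8 23.1%, 27.3% and 0%.

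To show what these isoforms hold, 30 bases across a splice site that is spliced out in a protein-coding isoform and read through in the most abundant retained-intron isoform are printed, with the GT that starts the intron or the AG that ends it in capitals, 15 bases on each side of the exon border, 5′ to 3′ on the gene's strand, from the GENCODE M21 transcripts on mm10. The most abundant such isoform ran into at least 1 such intron in 51 of 53 genes and held a whole one in 12. Its TPM in replicates 1, 2 and 3 was 3.43, 5.14 and 4.55 for Hdac7-211, 3.52, 4.28 and 5.97 for Sirt4-203, 17.6, 33.2 and 23.5 for Sirt7-205, 5.04, 4.34 and 3.76 for Kmt5c-206 and 14.1, 14.4 and 12.0 for Hdac1-206. The introns lie at chr15:97794066-97795746 for Hdac7, chr5:115480526-115482623 for Sirt4, chr11:120620505-120620646 for Sirt7, chr7:4743267-4745801 for Kmt5c and chr4:129516637-129516899 for Hdac1. Those of Sirt7, 142 bases, and Hdac1, 263 bases, are held whole, and the other isoforms run past 1 border only. The donor was GT in 35 of 35 genes with a readable one and the acceptor AG in 28 of 28.
Hdac7 intron end: agcttctcgtcctAGggaaatactggggct
Sirt4 intron start: cggatgcatgcacagGTgcagaagtctgcg
Sirt7 intron start: gggtccagcttgaagGTatgtgccgaccat
Sirt7 intron end: tgcccgctggaacAGgtactaaagaaatat
Kmt5c intron start: aaacccaactgcaagGTgagaccttcagag
Hdac1 intron start: gccagaagccaaaggGTgaggaaaggggct
Hdac1 intron end: ctgttctctctgcAGggtcaaagaagaggt

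**Figure D3:**
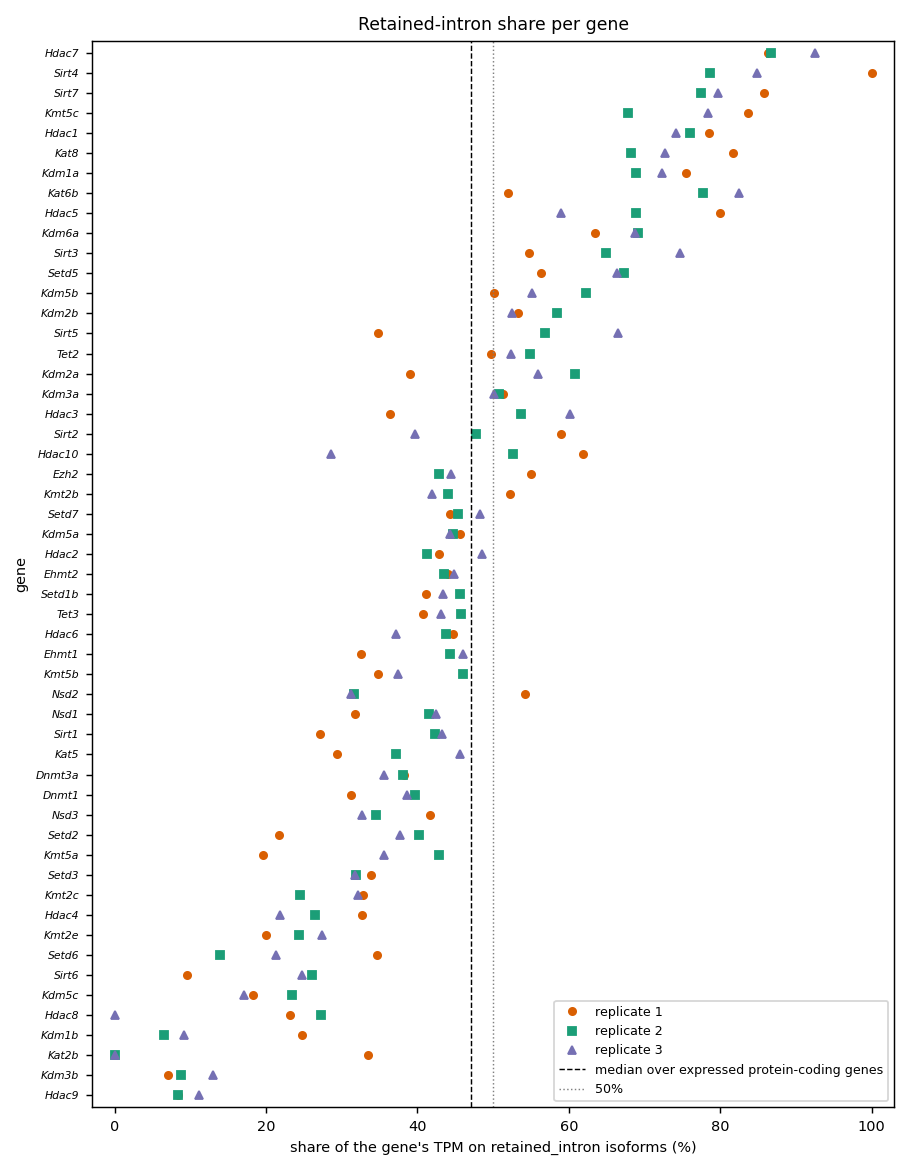
Share of each gene's TPM on retained-intron isoforms for the 53 expressed genes that have one, in %, with 1 point per library and lines at 50% and at the median over expressed protein-coding genes. Hdac7, Sirt4, Sirt7, Kmt5c and Hdac1 stand at the top, and Hdac9 and Kdm3b stand near the bottom with their 3 points close together.

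The isoform of highest mean TPM was not a protein-coding one in 27 of 65 expressed genes, beside 39.2% of expressed protein-coding genes. In 24 of them it was a retained-intron isoform, in 2 a processed transcript and in 1 a transcript subject to nonsense-mediated decay. By expected counts, 15 of 65 had a main isoform that was not protein-coding, with no share over all genes taken. Kmt2a-201, the coding isoform of highest mean TPM in its gene, held 64.4% ± 14.8 (SD, n = 3) of the TPM of Kmt2a. The nonsense-mediated decay isoform Kmt2a-204 had a TPM of 32.1, 2.25 and 3.31 in replicates 1, 2 and 3, high in replicate 1 alone. Tet2-201, the coding isoform of highest mean TPM in its gene, had 49.6, 55.4 and 51.6 and differed little between libraries, but its read-based TPM was lower at 11.8, 20.6 and 19.0. The coding isoforms Tet2-204, with 14.5, 0.83 and 1.09, and Tet2-205, with 13.9, 2.23 and 3.13, were highest in replicate 1, where the whole gene was also highest. In the read-based values Tet2-204 had 45.9, 18.3 and 19.1 and Tet2-205 31.0, 5.31 and 7.95, again highest in replicate 1.

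The authors quantified the same reads in 2 ways, by alignment to the transcriptome, used above, and from the reads directly, here called read-based. The read-based TPM was at least 1.5-fold higher in all 3 libraries for 17 of 65 expressed genes, beside 24.3% of 9234 expressed protein-coding genes. It was lower by that much for 0 of 65, beside 0.119% of all. The median fold, read-based over alignment-based, was 1.29 for the 65 genes and 1.32 for all, so the genes lay near the background in this too. With a limit of 2-fold, 7 of 65 genes were higher, and the share over all genes was not taken at that limit.

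Sirt5 differed most. Its alignment-based TPM was 1.33, 3.36 and 2.84 in replicates 1, 2 and 3, and its read-based TPM 27.1, 27.1 and 23.9, 10.7-fold higher on the geometric mean. Most of the gap lay in 1 coding isoform, Sirt5-209, a transcript of 2425 exon bases, with 0.25, 0.7 and 0.48 alignment-based and 25.1, 22.5 and 20.1 read-based. By the read-based values Sirt5 ranked at 40 of 73, and by the alignment-based ones at 65, so its place in the family depends on the quantification. Kat6b had 16.0, 13.6 and 14.997 read-based, 2.79-fold higher, and the processed transcript Kat6b-212 had 0 in each library by alignment and 7.36, 4.61 and 6.40 read-based. Dnmt1 had 27.3, 45.4 and 37.9, 2.76-fold higher. There the retained-intron isoform Dnmt1-206 had 2.85, 5.89 and 3.85 by alignment and 16.6, 32.5 and 27.3 read-based, while the main coding isoform Dnmt1-201 had 4.9, 7.73 and 4.97 by alignment and 5.34, 7.73 and 5.38 read-based. The coding isoform of Dnmt1 was thus close in both, and the gap lay in the retained-intron one. Hdac4 had 9.41, 18.1 and 15.2, 2.70-fold higher, with the processed transcript Hdac4-207 at 0 in each library by alignment and at 2.40, 7.95 and 6.33 read-based. Kdm4b had an alignment-based TPM of 10.5, 12.8 and 11.3 and a read-based one of 27.4, 40.9 and 25.8, 2.65-fold higher. The processed transcript Kdm4b-206, of 130 exon bases, was at 0 in each library by alignment and at 13.7, 24.7 and 11.4 read-based.

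The 5 highest genes were the same 5 in both quantifications, in another order. Tet2 had a read-based TPM of 213, 154 and 151 in replicates 1, 2 and 3, Ehmt2 163, 154 and 122 and Kmt2a 183, 176 and 162. Dnmt3a rose to the highest rank in the read-based values with 171, 198 and 165. The same isoform led in both quantifications in 30 of 65 genes, beside 56.2% of expressed protein-coding genes.

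**Figure D4:**
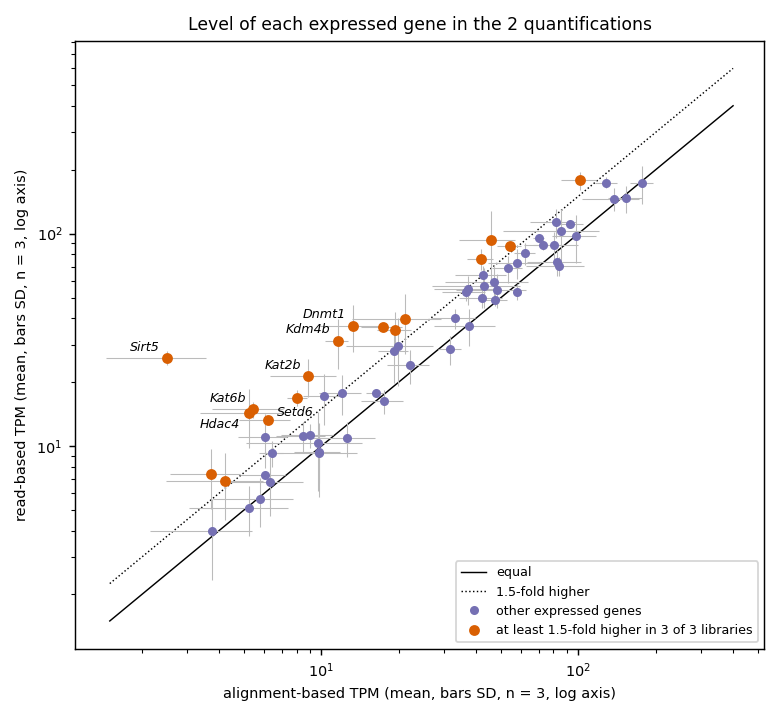
Read-based against alignment-based TPM of the 65 expressed genes on log axes (mean, bars SD, n = 3), with lines at equal values and at 1.5-fold. The 17 genes higher by at least 1.5-fold in all 3 libraries are coloured, and Sirt5 lies farthest from the line of equal values.

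Counts of these genes varied little between libraries. The median SD of log2 CPM (TMM normalisation, prior of 0.5) was 0.177 over 69 genes with at least 10 counts over the 3 libraries, or 0.108 without replicate 1, and 0.264 over all 12157 such protein-coding genes. The median count per gene was also higher, 754 against 189, and its part in the smaller spread was not tested. Setd2, Kdm5c and Kmt2a had SD values of 0.00833, 0.0169 and 0.0496.

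Replicate 1 was lower than each other library by at least 1.5-fold for 4 of 69 genes, beside 8.6% of all 12157, and higher by that much for 1 of 69, beside 8.88%. Setd4, the gene with the largest SD, had a log2 CPM of 0.45, 1.60 and 1.45 in replicates 1, 2 and 3, from 9, 45 and 38 counts. Dnmt3b had 0.55, 1.70 and 1.18, from 10, 49 and 30 counts, and the 2 rest on few reads. Hdac2 had 3.17, 4.01 and 4.23, from 88, 277 and 311 counts, and was 1.94-fold lower in replicate 1 than the mean of the others. Sirt3 had 2.30, 3.22 and 3.23, from 45.8, 157 and 151 counts, and was 1.90-fold lower. Exons of Sirt3 overlap Psmd13 and Ric8a on the opposite strand. Kdm6b was the 1 gene higher in replicate 1, with 5.99, 5.39 and 5.33, 1.55-fold over the mean of the others. It met the limit narrowly, and with a limit of 2-fold, in TPM, in the read-based values and without the count filter no gene did. Sirt6, the fifth gene by SD, had 4.95, 4.37 and 4.07, highest in replicate 1 and lowest in replicate 3. Replicate 1 also had the fewest counts of the 3 libraries and the largest RNA input, 1 µg against 250 and 500 ng, and the part of these in the differences was not tested. On the TPM scale, 16 genes were lower in replicate 1 by this rule. The share of all genes was not taken on that scale, so the 16 cannot be set against a background. The median of replicate 1 minus the mean of the others was there -0.44 (log2) over these genes. Over all protein-coding genes it was -0.34, the general shift given above.

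**Figure D5:**
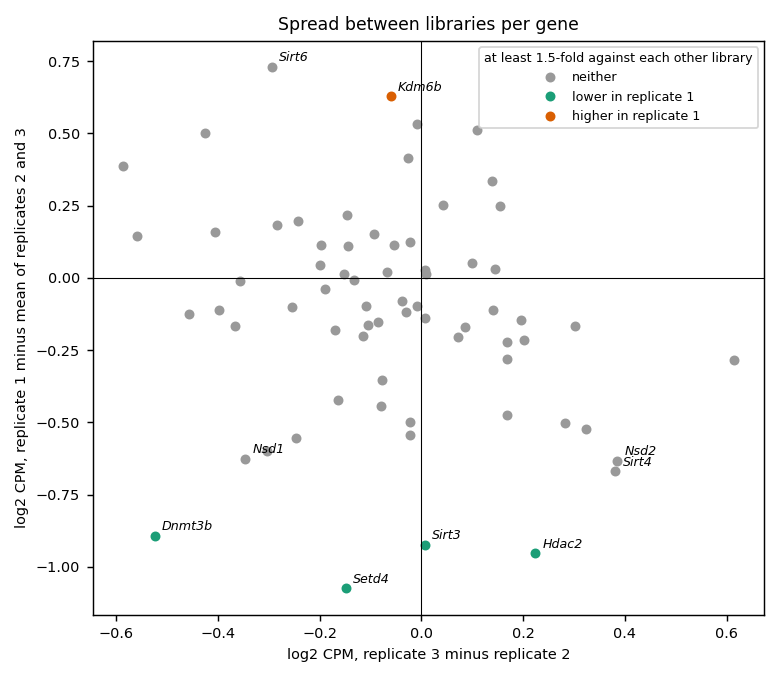
Log2 CPM of replicate 1 minus the mean of replicates 2 and 3, against replicate 3 minus replicate 2, for 69 genes with enough counts. Setd4, Hdac2, Sirt3 and Dnmt3b lie lowest and Sirt6 and Kdm6b highest, while most points lie close to 0 on both axes.

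Of the 73 genes, 29 share exon bases with another gene, 26 of them with a gene on the opposite strand, and in 4 of these the overlap with a single gene covers at least 10% of the exon bases. Besides Hdac4 and Kat5 these were Kdm3b, with 24.6% shared with the noncoding Gm26538, and Hdac11, with 15.4% shared with Gm44002, which had 0 TPM in each library. Gm26538 had 1.94, 8.51 and 8.99 TPM in replicates 1, 2 and 3, beside 35.0, 57.5 and 44.1 for Kdm3b. With the strand setting not given, the levels of Hdac4, Kat5 and Kdm3b are uncertain, as is that of Setd1a.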

How the data were processed

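For each of 3 libraries the authors deposited a gene and a transcript table of expected counts and TPM, in the columns RSEM writes per the file headers, and a second transcript table of estimated counts and TPM, in the columns kallisto writes. Per the labels the build is mm10. Symbols, isoform types and positions come from GENCODE M21. The sources used here do not give program versions or strand settings. Rows that name no annotated gene (numeric and spike-in rows) held 1.87%, 0.390% and 0.519% of counts in replicates 1, 2 and 3. They were left out of tests and of the library sizes used with TMM. The printed totals of expected counts, and the shares of counts taken from those totals, include them.

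The members, lists and pairs were chosen with earlier results of these data known. Per-library values are given for the 2 highest and the lowest gene of each of 15 role groups, for 22 genes set by name, and for the 5 highest by retained-intron share, by difference between quantifications and by SD; of each partner list, the highest and lowest gene. Values of other isoforms of Kmt2a and Tet2, the retained-intron shares of Hdac9, Kdm3b, Kat2b and Hdac8, the promoter counts of Kdm7a and Kdm4a and the SD of Setd2, Kdm5c and Kmt2a were added after they were seen. Differences between pairs are on the log2(TPM + 0.1) scale. Expected counts were rounded for edgeR 4.0.16 (TMM, prior 0.5 on CPM, at least 10 counts over the libraries), with DESeq2 1.42.0 size factors as an alternative, in R 4.3.3; the rest used Python 3.11.15, pandas 2.3.3, numpy 2.4.6 and scipy 1.17.1. The code was tested on simulated data. Alternatives covered thresholds, pseudocounts, units, the read-based values, filters, normalisation and leaving out each replicate.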

Additional observations from a re-analysis of the deposited data

How the results depend on the processing

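With 1 condition there is no contrast, and depth limits genes of few counts such as Setd4 and Dnmt3b. No paired comparison between conditions was possible because there is only 1 group, and only genes were compared within libraries. Of the alternatives to the main counts and medians, 47 were labelled close to the main value and 17 moved. For the medians of single role groups 104 were labelled close and 31 moved. Those labelled close include sizeable changes. At a TPM of at least 5, 52 genes were expressed, against 65. Without replicate 1, retained-intron isoforms held over 50% in 20 genes, against 15. In the read-based values 34 genes had a main isoform that was not protein-coding, against 27. The DNA methyltransferase median rose from 0.39 to 1.18 with a pseudocount of 1. The median level of the 73 genes, 4.17 on the log2(TPM + 0.1) scale, became 5.46 in CPM, 4.90 in the read-based values, 3.87 as a mean over genes and 4.73 over expressed genes only. The read-based values were higher for 7 genes with a 2-fold limit and for 11 of those with a TPM of at least 5, against 17. By expected counts, retained-intron isoforms held over 50% in 8 genes, against 15, and 15 genes, against 27, had a main isoform that was not protein-coding. Without replicate 1 the median SD of log2 CPM fell from 0.177 to 0.108. Replicate 1 was lower for 1 gene at 2-fold, 16 in TPM and 12 in the read-based values, against 4, and higher for 2 genes with DESeq2 size factors and 0 with no count filter, at 2-fold, in TPM or in the read-based values, against 1. Shares over all genes were taken at the main settings only, so the counts of genes under these alternatives have no background beside them. Of the alternatives for the pairs 12 turned the sign (log2) and 120 did not. Kdm3a minus Kdm3b became -0.82 in CPM and -0.37 in the read-based values, and Hdac5 minus Hdac4 -0.35 and -0.57. In the read-based values Kdm5a minus Kdm5c became 0.15, Nsd1 minus Nsd3 0.059 and Kat2a minus Kat2b -0.96. Hdac7 minus Hdac9 became 0.026 in CPM. Leaving out each replicate in turn gave -0.17 to 0.23 for Kdm5a minus Kdm5c and -0.46 to 0.12 for Nsd1 minus Nsd3, both above 0 without replicate 1 only, and -0.21 to 0.19 for Hdac7 minus Hdac9, which was 0.012 without replicate 2. The causes were not tested.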
